A study of Eptesicus fuscus and Canis lupus familiaris and Equus caballus with 4 samples.

Results

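Candidate_602 was the hairpin with the most reads in the small RNA list of big brown bat (Eptesicus fuscus) testis, and it stood together with 4 related hairpins elsewhere in the bat genome. The members were Candidate_602 and every bat hairpin joined to it through blastn alignments of at least 50 bases at 80% identity or more, where the hairpins did not overlap on the same strand. This gave 5 hairpins on 5 contigs, out of 762 bat hairpins and 1453 hairpins in the bat, horse and dog lists together. Candidate_602 was chosen by its read count and the relatives by their hairpin similarity, so neither its first rank nor the similarity of the linked pairs is a finding. The tissue was adult testis, snap frozen, from which the small RNA fraction of TRIzol-extracted total RNA was read as 50 bp single-end Illumina reads. The members came from 1 bat library. The lists of 1 horse and 1 dog library, also of adult testis, were searched for relatives, and a further bat library from another animal was not analysed here. With 1 library per species there were no replicates and no test was run.

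A microRNA (miRNA) is a short RNA cut from a transcript that folds back on itself into a hairpin. Drosha and Dicer, the enzymes that make the cuts, release a duplex from the stem, and an Argonaute protein keeps 1 strand of it, the mature miRNA. Bases 2 to 8 of the mature strand, the seed, contribute most to target recognition. New miRNA genes can arise from copies of mobile elements that happen to fold, and testis also holds piRNAs, somewhat longer small RNAs that act against mobile elements in the germ line and do not need a hairpin. A candidate in these lists is a genome window that could fold and had reads on an arm. It is not thereby a miRNA, and no repeat or gene annotation of the bat assembly was used, so no exon, intron, UTR or repeat class is stated for a member. No gene name or function is attached to the 5 hairpins in the files.

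The 5 hairpins are shown 5′ to 3′ on their own strand as deposited, with the mature stretch in capitals. The results below turn on where the mature stretches lay in sequence that the members share.
Candidate_602: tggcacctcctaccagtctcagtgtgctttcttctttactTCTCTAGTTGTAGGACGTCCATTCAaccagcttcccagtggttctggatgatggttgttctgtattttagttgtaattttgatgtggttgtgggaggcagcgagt
Candidate_476: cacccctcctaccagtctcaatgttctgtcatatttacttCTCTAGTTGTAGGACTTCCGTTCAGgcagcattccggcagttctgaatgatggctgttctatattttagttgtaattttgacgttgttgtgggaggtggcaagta
Candidate_719: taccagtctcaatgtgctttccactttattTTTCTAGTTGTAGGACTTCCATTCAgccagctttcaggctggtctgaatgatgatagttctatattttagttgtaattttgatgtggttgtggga
Candidate_466: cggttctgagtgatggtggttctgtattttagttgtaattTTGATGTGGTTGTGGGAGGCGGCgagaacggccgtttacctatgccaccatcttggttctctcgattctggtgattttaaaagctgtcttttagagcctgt
Candidate_640: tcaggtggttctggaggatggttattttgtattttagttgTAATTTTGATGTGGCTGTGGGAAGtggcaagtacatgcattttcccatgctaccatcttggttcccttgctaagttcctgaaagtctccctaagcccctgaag

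Candidate_602 lay at ALEH01139364.1:1202-1346 on the plus strand and Candidate_476 at ALEH01161165.1:557-701 on the plus strand. Candidate_719 lay at ALEH01135243.1:13334-13458 on the plus strand. Candidate_466 lay at ALEH01077147.1:1464-1604 on the minus strand, and Candidate_640 at ALEH01119201.1:1837-1979 on the plus strand. These are contigs of a bat assembly, and its build is not stated in the sources used here. No other listed hairpin lay on any of the 5 contigs. Contigs with a single hairpin made up 476 of the 580 contigs in the bat list (82.1%).

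Reads were spread very unevenly over the members. Candidate_602 had 9487 reads (9297 to 9680, exact Poisson 95% interval), which rested on 58 distinct read sequences. Candidate_476 had 1846 reads (1763 to 1932) from 28 distinct sequences and ranked 12 in the bat list. Both were far above the other 3 members. Candidate_719 had 5 reads (1.62 to 11.7) from 4 distinct sequences, Candidate_466 had 3 reads (0.619 to 8.77) from 3, and Candidate_640 had 2 reads (0.242 to 7.22) from 2. These 3 intervals overlapped, so their order was not resolved at this depth, and all 3 counts lay close to the bat list's median of 3 reads. In all, 454 of the 762 bat hairpins (59.6%) had 5 reads or fewer. The intervals cover counting error only.

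**Figure D1:**
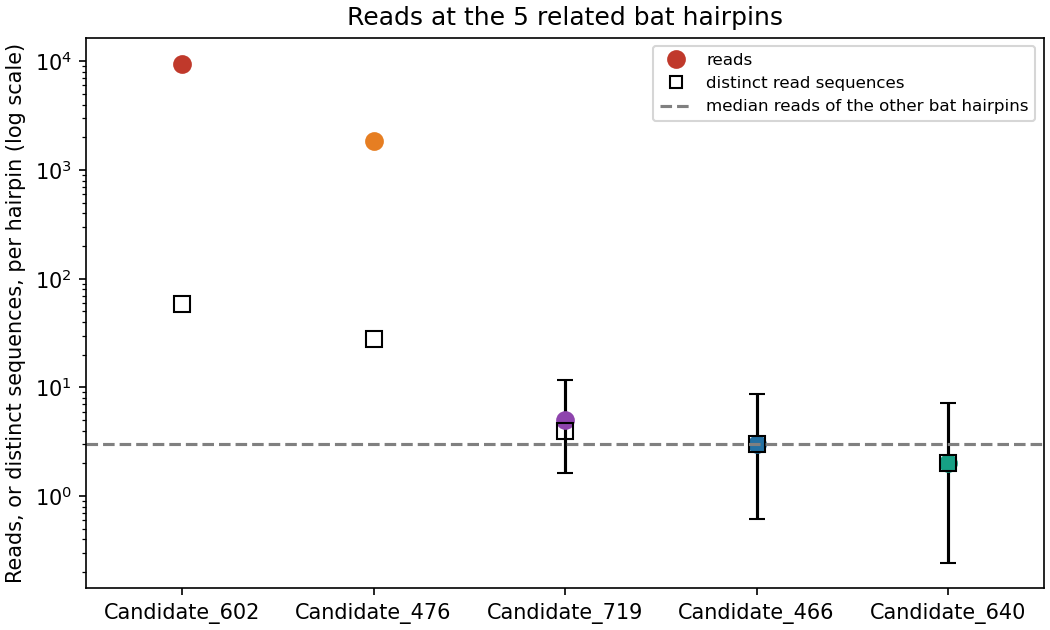
Reads (filled circles, with exact Poisson 95% intervals) and distinct read sequences (open squares) at each of the 5 related bat hairpins, on a log scale, with the median reads of the other bat hairpins as a dashed line. Candidate_602 at 9487 and Candidate_476 at 1846 reads stand far above the other 3 members, whose 5, 3 and 2 reads have intervals that span the line at 3.

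The family summed to 11343 reads. That was 12.7% (12.5 to 13.0, exact Clopper-Pearson 95% interval) of the 89091 reads listed for the bat. Candidate_602 alone held 83.6% of the family's reads (82.9 to 84.3), Candidate_476 held 16.3% (15.6 to 17.0), and the other 3 members together held 10 reads, or 0.0882% (0.0423 to 0.162). Candidate_602 had 5.14 times the reads of Candidate_476 (4.89 to 5.40). No mature sequence was listed at more than 1 member. The Candidate_602 mature sequence differed from the Candidate_476 hairpin at 2 of 25 bases. The Candidate_719 mature sequence differed from each of these 2 hairpins at 2 of 25 bases. Those of Candidate_466 and Candidate_640 differed from the Candidate_602 hairpin at 1 of 23 and 2 of 24 bases. Mapping settings were not stated, so whether any read was counted at more than 1 of the hairpins cannot be seen here. Nor can it be seen whether the 10 reads of the last 3 members arose at the hairpins that list them. Elsewhere in the bat list, 65 of the 68 sets of hairpins with an identical mature sequence listed the same read count at each hairpin, so the 89091 reads count some reads more than once. With each identical mature sequence counted once the list held 78353 reads, and the family was 14.5% of them.

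The 2 strongly read members had few distinct read sequences for their depth. A distinct sequence is a read that differs from others at its ends or in a base, so this number describes how varied the reads of a hairpin were. Candidate_602, with 58, ranked 27 in the list for distinct sequences, although it ranked first for reads. Candidate_135, with 8100 reads the nearest in depth, had 144, and Candidate_667, with 4975 reads, had 73. The next by reads were Candidate_694, with 100 distinct sequences from 3276 reads, and Candidate_60, with 148 from 2811. Candidate_476, with 28, had the fewest of the 16 bat hairpins with at least 1000 reads, whose median was 87.5. Of these 16, 3 had fewer than Candidate_602, and they had 1846, 1352 and 1133 reads. Its neighbours in rank were more varied, with 93 at Candidate_910 (2198 reads) and 107 at Candidate_875 (1766 reads). Per distinct sequence, Candidate_602 averaged 164 reads, the highest value in the list, and Candidate_476 averaged 65.9, the fourth highest. Between them came Candidate_306, with 103 reads of a single sequence, and Candidate_667, with 68.2 reads per sequence. This ratio grows with depth, and mapping or end trimming settings that could change it were not stated in the sources used here. Candidate_602 was chosen for its reads, which this ratio divides by distinct sequences. Its first place is therefore partly set by that choice and is a description, not a finding.

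**Figure D2:**
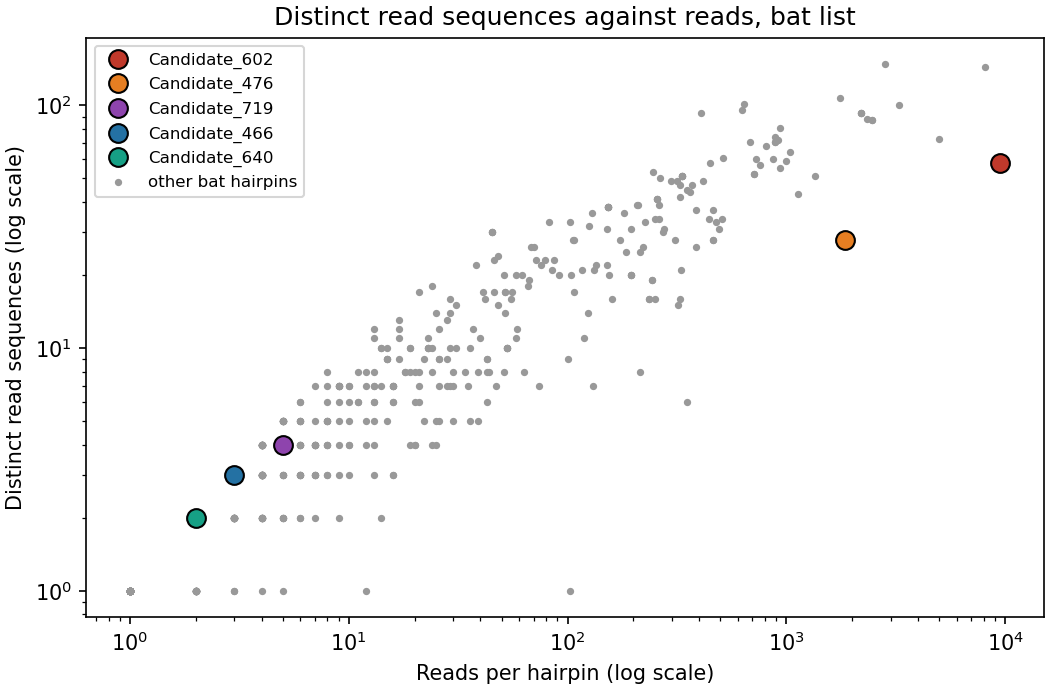
Distinct read sequences against reads for every bat hairpin, both on log scales, with the 5 members as large coloured points and the other bat hairpins as small grey points. Candidate_602 (58 sequences, 9487 reads) and Candidate_476 (28 sequences, 1846 reads) lie below the other hairpins with at least 1000 reads near them, whereas the 3 members with few reads lie near the upper edge of the grey points.

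The hairpins aligned to each other without a gap, so each base of a member could be placed at a base of the Candidate_602 hairpin, counted from 1 at its 5′ end. In these shared positions the family covered 219 bases. Candidate_602 covered bases 1 to 145, Candidate_476 a window shifted by 1 base and Candidate_719 bases 11 to 135. Candidate_466 began only at base 79 and ran to base 219, and Candidate_640 ran from 74 to 216. The family thus held 2 groups of windows that overlapped in part. Counted within its own hairpin, the mature stretch began at base 41 in Candidate_602, Candidate_476, Candidate_466 and Candidate_640. It began at base 31 in Candidate_719. A start at base 41 was listed for 103 of the 762 bat hairpins (13.5%). The positions of the windows and the places of the mature stretches described next are therefore not separate observations.

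The mature stretches fell at 2 places that did not overlap. At the first, Candidate_602 and Candidate_719 both had their mature stretch at bases 41 to 65, and that of Candidate_476 lay 1 base further on, at 42 to 66. At the second, the stretch of Candidate_466 lay at 119 to 141 and that of Candidate_640 at 114 to 137, so these 2 overlapped but began 5 bases apart. The 3 hairpins with their mature stretch at the first place had 11338 reads in all, and the 2 at the second had 5. These are totals of whole hairpins and not reads located at a place. The Candidate_602 and Candidate_476 hairpins contained both places, yet their listed stretch was the first. The lists give 1 mature stretch and 1 read count per hairpin, so reads of these hairpins at the second place would not be seen separately.

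**Figure D3:**
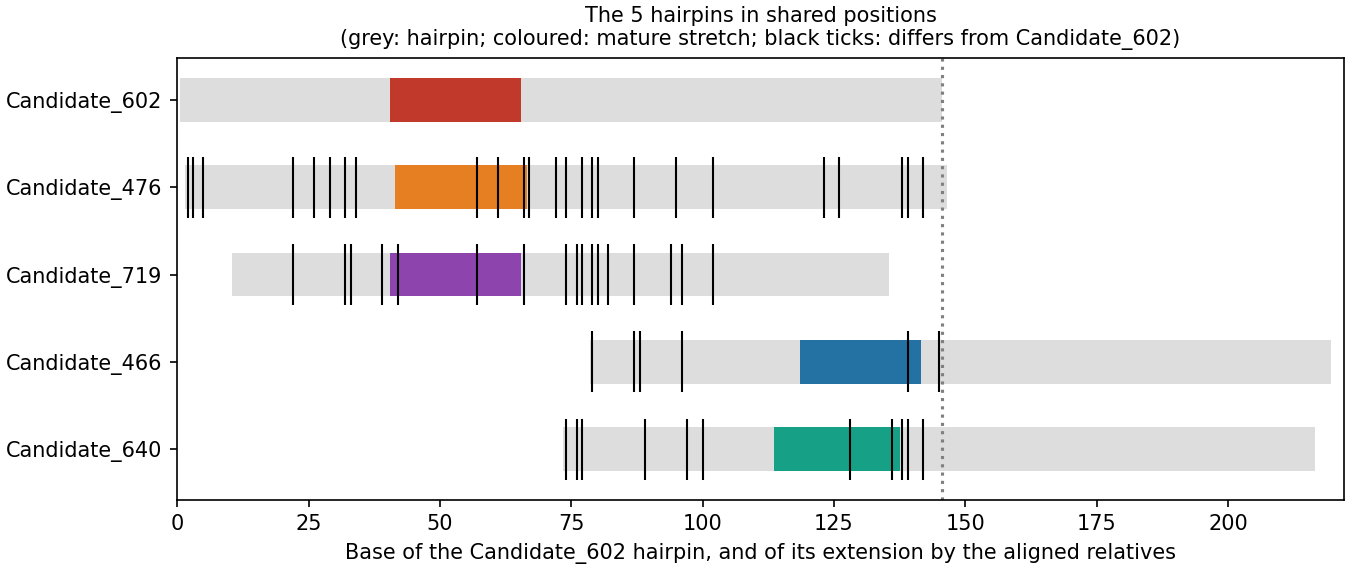
The 5 hairpins drawn in the positions of the Candidate_602 hairpin (horizontal axis, in bases, continued past its end at 145 by the relatives), with hairpins in grey, mature stretches coloured and bases that differ from Candidate_602 as black ticks. The stretches of the upper 3 members start at base 41 or 42, and those of the lower 2 at 119 and 114.

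The mature sequences are shown next with the seed in capitals, because no 2 members shared a seed as listed.
Candidate_602: tCTCTAGTtgtaggacgtccattca
Candidate_476: cTCTAGTTgtaggacttccgttcag
Candidate_719: tTTCTAGTtgtaggacttccattca
Candidate_466: tTGATGTGgttgtgggaggcggc
Candidate_640: tAATTTTGatgtggctgtgggaag

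Candidate_602, Candidate_476 and Candidate_719 carried versions of a single sequence. Substitutions are given as the base of the first-named mature sequence, its position from 1 at that sequence's 5′ end, and the base of the other hairpin at the same place. Candidate_602 differed from the Candidate_476 hairpin by G17T and A21G, and from the Candidate_719 hairpin by C2T and G17T. Candidate_719 differed from the Candidate_476 hairpin by T2C and A21G. Each of the 3 thus had a single base of its own, at position 17 in Candidate_602, at 21 in Candidate_476 and at 2 in Candidate_719, all counted along the Candidate_602 mature sequence. Of these, the base at position 2 falls in the seed. The listed seed of Candidate_476 also differed from that of Candidate_602, through its start 1 base further on.

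At the second place Candidate_466 differed from the Candidate_640 hairpin by T10C, G18A and C20T. The Candidate_466 sequence differed from the Candidate_602 hairpin at this place by G21A alone. The Candidate_640 sequence differed from the Candidate_602 hairpin by C15T and A23G.

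All 3 sequences at the first place were 25 bases long, the longest length in the bat list. Candidate_602 and Candidate_719 began with U (T in the files) and Candidate_476 with C. The sequences at the second place were 23 bases long in Candidate_466 and 24 in Candidate_640, and both began with U. In the bat list 47.2% of the mature sequences began with U. A length of 25 bases was listed for 143 bat hairpins (18.8%), which held 63983 reads (71.8%), and the family supplied 17.7% of those reads. No listed sequence was longer than 25, so whether the reads themselves ran on further cannot be seen here.

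Differences between Candidate_602, Candidate_476 and Candidate_719 were fewer inside than outside the first mature stretch. These hairpins shared 125 positions, of which 99 (79.2%) were identical in all 3. The mature stretch at bases 41 to 65 was identical at 22 of 25 positions (88.0%), and the part of the second place that all 3 covered, bases 114 to 135 (Candidate_719 ended there), at 20 of 22 (90.9%). Over the whole second place, up to base 141, Candidate_602 and Candidate_476 matched at 24 of 28 positions (85.7%), against 82.6% over all positions these 2 shared. Between the 2 places, at bases 66 to 113, 34 of 48 positions were identical (70.8%), and before the first stretch, at 11 to 40, 23 of 30 (76.7%). These are small numbers of positions in 3 sequences that were chosen for their similarity, and no test was made of them. Candidate_602 alone differed at 8 of the 125 positions, Candidate_476 alone at 9 and Candidate_719 alone at 7, so none of the 3 stood apart from the other 2.

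All 5 hairpins overlapped at 57 positions, bases 79 to 135, and 42 of them (73.7%) were identical throughout. The longest identical run was 20 bases, tattttagttgtaattttga, at bases 103 to 122 (ALEH01139364.1:1304-1323). Within the first mature stretch the longest run shared by its 3 members was tctagttgtaggac, 14 bases at ALEH01139364.1:1244-1257. Neither run occurred, on either strand, in any of the 757 other bat, 439 horse or 252 dog hairpins. Both runs were taken from these members, so their absence elsewhere is a description and no evidence that the family is distinct.

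Among the 10 pairs of members, identity over the blastn alignment ran from 81.2% over 101 bases, for Candidate_466 with Candidate_640, to 93.8% over 65 bases, for Candidate_602 with Candidate_466. The shortest alignment was 53 bases, for Candidate_719 with Candidate_466. All 10 pairs passed the limits directly. Past the end of the Candidate_602 hairpin, Candidate_466 and Candidate_640 remained alike at 27 of 35 positions up to base 180, where their alignment ended (77.1%). From there to base 216 only 3 of 36 positions matched (8.33%) when no gap was allowed.

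No listed hairpin outside the family came near the limits. For the bat this is partly set by the rule, because a bat hairpin that met the limits would have been a member. The bat values here only describe how far the nearest hairpins fell short. The best bat alignment was Candidate_466 with Candidate_569 over 20 bases at 90% identity, with an E-value of 0.057. In the horse it was Candidate_602 with the horse hairpin Candidate_369 over 15 bases, with an E-value of 0.058, and in the dog it was Candidate_640 with the dog hairpin Candidate_40 over 15 bases, with an E-value of 2.4. These horse and dog hairpins had 1 read each. The next nearest in the bat, Candidate_742 and Candidate_915, aligned over 19 and 16 bases with E-values of 0.2 and 0.6. Those in the horse (Candidate_458 and Candidate_544) and in the dog (Candidate_34 and Candidate_326) aligned over 11 to 23 bases with E-values from 2.4 to 8.7. The mature sequence of Candidate_602 met no stretch of another bat hairpin with fewer than 8 mismatches over its 25 bases, on either strand, and the fewest were 10 in the horse and 9 in the dog. No other hairpin of the 3 lists had the seed of any member. A search of 3 lists of candidates does not show whether the horse and dog genomes hold the sequence.

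The hairpins of the family were weakly folded per 100 bases compared with the rest of the bat list, before any match on GC content. The predicted minimum free energy of Candidate_602 was -37.6 kcal/mol over 145 bases, or -25.9 per 100 bases, and 2 of the 757 other bat hairpins were less stable by this measure. Values per 100 bases were -29.0 for Candidate_476 and -28.5 for Candidate_719, with 20 and 18 other hairpins less stable. They were -31.1 for Candidate_466 and -31.4 for Candidate_640, with 48 and 56 less stable. The other bat hairpins had a median of -41.5 (quartiles -48.8 and -35.9), so all 5 members lay above the upper quartile. Their GC content, which moves with folding energy, was also low. It was 45.5% in Candidate_602, 43.4% in Candidate_476, 37.6% in Candidate_719, 45.4% in Candidate_466 and 44.1% in Candidate_640, against a median of 55.6% for the others (quartiles 49.4% and 60.6%). Among the 186 other hairpins within 5 percentage points of the GC content of Candidate_602 the median energy was -37.4 per 100 bases, and 1 of them was less stable than Candidate_602. This match was made for Candidate_602 alone, the least stable member. Whether the other members were unusual among hairpins of like GC content was not tested. Hairpin length was not matched. The members were 125 to 145 bases long, in a list that ran from 85 to 145, and the part played by length was not tested. All 5 members were predicted by all 5 of the authors' models, as were 393 of the 762 bat hairpins (51.6%).

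**Figure D4:**
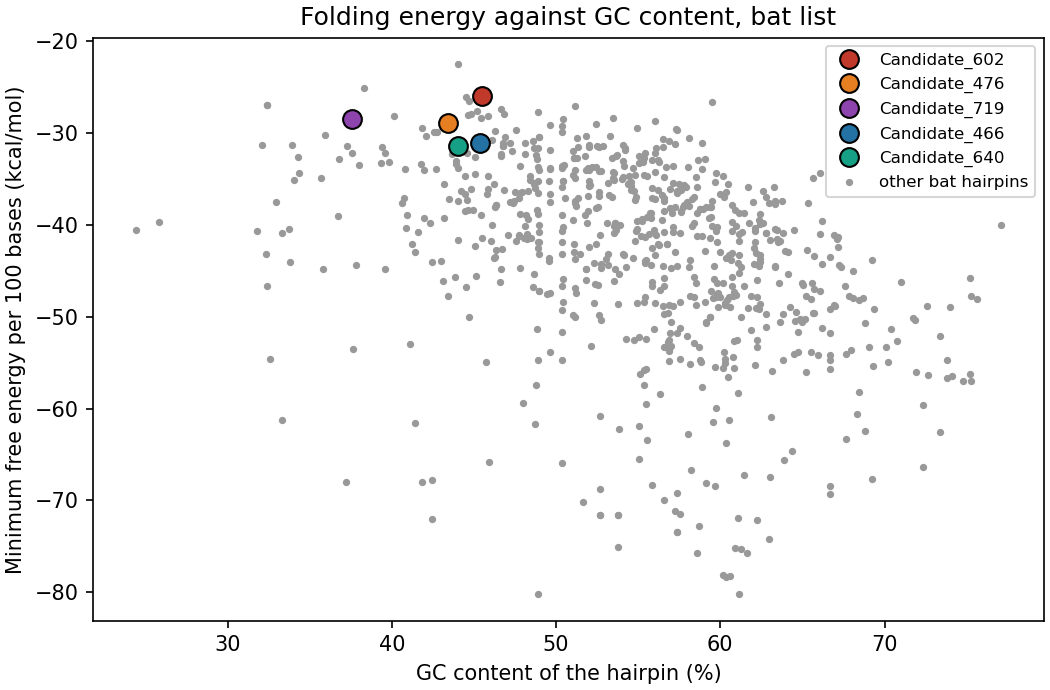
Minimum free energy per 100 bases (kcal/mol, higher is less stable) against GC content for every bat hairpin, with the 5 members as large coloured points and the other bat hairpins as small grey points. The members lie between -31.4 and -25.9, near the upper, less stable edge, and between 37.6% and 45.5% GC.

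The predicted folds placed the mature stretch on the 5′ side of a stem in all 5 members. In Candidate_602, 18 of the 25 mature bases (72.0%) were paired, with partners between bases 89 and 110. Candidate_476 had 20 of 25 paired and Candidate_719 had 21 of 25, and in both the farthest partner was again base 110 in shared positions. The 3 folds therefore joined the same 2 parts of the sequence. In Candidate_466, 20 of 23 mature bases (87.0%) were paired with partners from base 149 to 170, and in Candidate_640, 20 of 24 (83.3%) with partners from 154 to 176. These partners lie past the end of the Candidate_602 hairpin. In the folds of Candidate_602, Candidate_476 and Candidate_719 the second place lay in the outer part of their own stem. There 21 of 28, 21 of 28 and 12 of 22 covered bases were paired, with partners between bases 3 and 38, and none paired with the mature stretch. Other bat hairpins had a median of 84.0% of mature bases paired (quartiles 78.3% and 90.9%), and Candidate_602 lay below the lower quartile. The stretch lay on the 5′ side in 44.3% of the other hairpins.

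**Figure D5:**
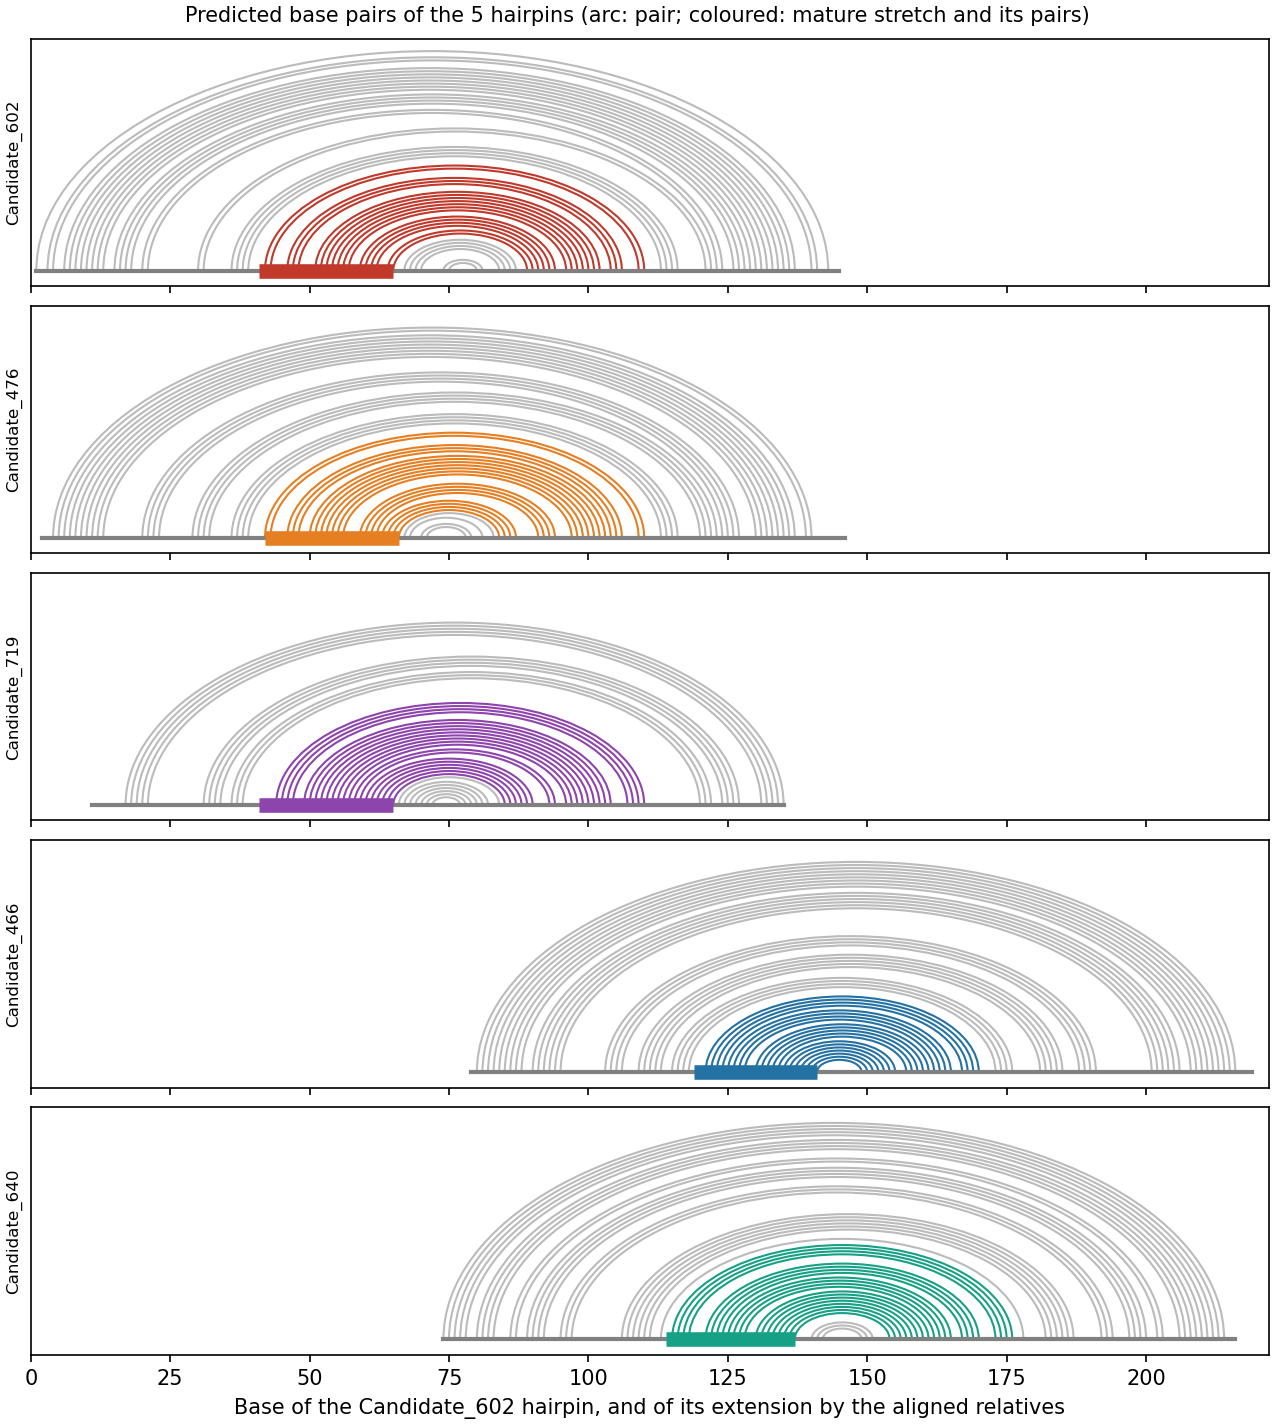
Predicted base pairs of each member as arcs over the shared positions (horizontal axis, in bases of the Candidate_602 hairpin and its extension), with the mature stretch and its pairs coloured and all other pairs in grey. The upper 3 folds pair the stretch at about base 41 to 66 with partners up to base 110, and the lower 2 form a stem further along, with partners between 149 and 176.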

How the data were processed

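Per the deposited column descriptions, the authors ran a local copy of miRanalyzer, which predicts miRNA hairpins from mapped reads. Deposited counts, of distinct sequences and of summed reads at each hairpin, are raw whole numbers. The authors' score tells how many of 5 models predicted a hairpin (4 or 5 in the bat list). The deposited fraction, read count over the total of the authors' analysis, has 3 decimals and was 0.096 for Candidate_602, and these fractions bound the bat total between 98889 and 99340 reads. The submitters' processing notes name CanFam3.1 for all species, so the bat build is unstated in the sources used here, as are mapping and trimming settings. Positions were checked as 1-based in all 762 bat rows.

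Hairpins were compared with blastn 2.17.0 (word size 7, E-value 0.001) and folded with RNAfold 2.7.2. Other steps used pandas 2.3.3, numpy 2.4.6, matplotlib 3.10.9 and scipy 1.17.1 under Python 3.11.15. The family step was checked on simulated hairpins. Named hairpins were the members, the best alignments outside, the bat hairpins ranked 2 to 5 by reads, and any with a member's seed or contig. Candidate_910, Candidate_875 and Candidate_306 were chosen after their values were seen, as were the comparison of distinct sequences and the GC window. Members and lists were chosen with earlier results of these data known.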

Additional observations from a re-analysis of the deposited data

How the results depend on the processing

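No paired analysis was possible because the comparison rests on 1 library per species. Of 41 recomputed values, 32 stayed within 1.5 times for counts or inside the interval of the reported share, and 9 moved. Candidate_476 left the family at 90% identity, which put the family at 10.7% of listed reads and Candidate_602 at 99.9% of the family. With alignments of at least 80 bases the family had 3 members, without Candidate_466 and Candidate_640, and with at least 10 reads it had 2, Candidate_602 and Candidate_476. Identity limits of 75% and 85%, alignment limits of 40 and 60 bases, an E-value of 1e-06, a word size of 11, direct alignments only and all 5 models each gave the same 5 members. The family's share of listed reads was 13.7% among hairpins of all 5 models, 14.5% with identical mature sequences once, 13.0% with overlapping hairpins merged and 2.33% without Candidate_602. Mature sequences within 2 mismatches of Candidate_602 over 18 bases were those of 2 members, Candidate_476 and Candidate_719, also with 4 mismatches allowed, and there were 0 with none allowed. At least 50% of the mature bases were paired in 5 of 5 members with and without dangling-end energies. The lower quartile of the other bat hairpins was 78.3% paired, so most of the list passed this limit too and it does not mark the members. Depth limits the 3 members with 5, 3 and 2 reads, whose intervals overlap, and the list gives no separate value for reads outside the mature stretch.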

Other observations

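The Candidate_602 hairpin held the 8 letters TAGTTGTA at 2 places, from base 45, inside the mature stretch, and from base 108, in the run shared by all 5 members. They occurred at both places in the 3 members that cover both, Candidate_602, Candidate_476 and Candidate_719, and at least once in all 5. Searched on both strands, the letters were found in 0 of the 757 other bat hairpins, 1 of the 439 horse hairpins (0.228%) and 0 of the 252 dog hairpins. They were chosen after the sequences were seen, as the only 8 letters of the mature stretch that recur downstream in the Candidate_602 hairpin.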
